A study of Mus musculus with 9 samples.

Results

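The interferon-stimulated genes described here are 43 named mouse genes, out of 55536 gene identifiers counted in each library. They were chosen by symbol, through the GENCODE M21 annotation, and fall into 32 antiviral genes classed with the type I interferon response and 11 GTPase genes classed with the interferon-gamma response. The antiviral genes are 4 IFIT genes, 5 OAS genes, 2 MX genes, 3 genes of the ISG15 system, 3 cytoplasmic RNA sensors, 11 other effectors, and Stat2 with 3 genes of ADP-ribosylation. The GTPase genes are 5 guanylate-binding proteins (GBP) and 6 immunity-related GTPases (IRG). All 43 matched an identifier in every library, and all 43 passed the filter on low counts.

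Interferons are secreted proteins that put neighbouring cells into an antiviral and antimicrobial state. Type I interferons (interferon-alpha and interferon-beta) signal through a receptor and the kinases JAK1 and TYK2 to a transcription factor complex with STAT2 and IRF9, which binds a promoter sequence called the interferon-stimulated response element (ISRE). Interferon-gamma acts through another receptor, with JAK1 and JAK2, on genes that carry the gamma-activated sequence (GAS), and it also induces the transcription factor IRF1, which can bind ISRE-like sequences itself. Many target genes respond to both kinds of interferon, and in skeletal muscle a high level of these genes is best known from inflammatory muscle disease.

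The samples were quadriceps muscles of C57BL/6 mice with volumetric muscle loss, an injury made by surgically removing a piece of the muscle, and RNA was measured by bulk sequencing. Of 9 libraries, 4 were labelled wild type and 5 were labelled Il17ra-/-, a knockout of a receptor subunit for interleukin-17 cytokines. All 9 shared the strain, the injury, an age given as 6 weeks and a material given as saline. The sample tags put the harvest 1 week after surgery, whereas the protocol text names PCL as the material and 6 weeks as the time, and the sources used here do not settle which holds. The labels name neither the knockout allele nor its exons, and the design text speaks of 3 animals per genotype, so it is not known how the 4 and 5 libraries relate to animals. If some came from 1 animal, the p-values measure only the spread between these libraries. The question is how the muscle transcriptome, here its interferon-stimulated genes, differs between the genotypes.

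The libraries held 31.3 to 46.4 M counts, at which 3 counts correspond to 0.0638 to 0.0984 CPM (a gene's count per 1 M counts of its library, scaled by TMM factors, which correct for library composition). The targeted gene went against its label. Il17ra (chr6:120463247-120487559, plus strand) stood at 75.9, 107, 85.4 and 119 CPM in the wild-type-labelled libraries and at 200, 185, 181, 284 and 192 CPM in those labelled Il17ra-/-. It was therefore higher in every library labelled as the knockout, by 2.15-fold (log2 fold change 1.11, SE 0.17, adjusted p 0.00208). Reads outside a deleted part of a gene do not test a deletion, but directions below are given between libraries labelled Il17ra-/- and libraries labelled wild type for this reason. In a principal component analysis, WT replicate 2 stood apart on the first component, which held 35.0% of the variance. The second component, with 17.9%, separated Il17ra-/- replicate 1. Both had counts in fewer genes than the rest, 17256 and 18248 against 19258 to 20945.

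Promoter sequences show which elements the members carry. RefSeq promoters (GRCm38.p6, 250 bases before to 50 bases after a start site) were found for 31 of the 43 members and for 27025 genes in all. They were searched on both strands for an ISRE core (GAAANNGAAA, or TTTCNNTTTC on the other strand) and for a GAS (TTCNNNGAA, which reads the same on both strands). A gene counted if any of its promoters held a match. The ISRE core was found in 19 of the 31 members (61.3%), against 3.99% of all genes in the table, and the GAS in 11 (35.5%), against 9.55%. Both elements were found in 5 of 9 GTPase genes (55.6%), in 2 of 22 antiviral genes (9.09%) and in 0.614% of all genes. Matches of both kinds overlapped in 1 member, Bst2, and in 0.0851% of all genes. Such matches describe letters and do not show binding.

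The first set below shows 4 IRG promoters. Of these 4 genes, only Irgm1 was called lower in the comparison described below. The promoter of the IRG gene Ifi47 was also searched, held neither element and is not shown. Each is written 5′ to 3′ in the direction of transcription, with the matched letters in capitals. In Igtp, Irgm2 and Tgtp2 a GAS begins 11 bases before an ISRE core, whereas Irgm1 has 2 overlapping ISRE cores and no GAS.
Irgm1, chr11:48871423-48871462, minus strand: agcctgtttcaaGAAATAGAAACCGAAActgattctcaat
Igtp, chr11:58199499-58199543, plus strand: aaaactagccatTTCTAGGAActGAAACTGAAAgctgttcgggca
Irgm2, chr11:58214890-58214934, plus strand: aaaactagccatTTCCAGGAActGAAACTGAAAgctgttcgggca
Tgtp2, chr11:49064261-49064305, minus strand: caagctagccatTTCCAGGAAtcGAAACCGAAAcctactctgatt
The Irgm1 stretch lies inside an exon of a non-coding GENCODE M21 transcript of Irgm1, and the Irgm2 stretch inside the longer M21 model of Irgm2, outside its exons.

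The second set shows only antiviral genes with an ISRE core, for comparison of how many cores they carry and how these are spaced. A core was found in 11 of 22 antiviral genes and in 8 of 9 GTPase genes. Antiviral genes without a core, such as Ifit2, Oasl1 and Oasl2, are not shown. Isg15 has 3 overlapping cores and Oas1a has 2. Ifit1, Ifit3 and Ifit3b each have 2 separate cores, and the Ifit3 and Ifit3b stretches are identical. Rsad2 has 1 core. Oas1a also has a GAS, upstream of the letters shown.
Isg15, chr4:156200863-156200908, minus strand: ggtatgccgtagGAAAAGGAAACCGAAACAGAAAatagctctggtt
Ifit1, chr19:34640773-34640825, plus strand: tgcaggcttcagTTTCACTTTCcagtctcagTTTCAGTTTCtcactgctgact
Ifit3, chr19:34583361-34583428, plus strand: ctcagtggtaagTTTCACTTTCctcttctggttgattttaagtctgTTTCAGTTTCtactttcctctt
Ifit3b, chr19:34607757-34607824, plus strand: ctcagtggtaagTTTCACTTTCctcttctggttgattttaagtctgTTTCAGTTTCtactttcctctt
Oas1a, chr5:120907526-120907557, minus strand: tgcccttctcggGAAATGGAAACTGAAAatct
Rsad2, chr12:26456551-26456584, minus strand: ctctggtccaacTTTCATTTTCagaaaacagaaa

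Between the genotype labels, the 43 genes did not move as a block. The IRG genes Irgm1 and Iigp1 fell, by 1.99-fold and 2.26-fold, and were called in all 19 alternative analyses. The MX gene Mx2 fell by 2.36-fold, at an edgeR adjusted p of 0.0499, with groups that overlapped and a call in 8 of 19 alternatives. None of the members was called higher. These 3 of 43 genes stand against 1.71% of all 16039 tested genes called lower and 1.35% called higher by edgeR's quasi-likelihood test at a Benjamini-Hochberg adjusted p under 0.05. The count of 0 higher rests on that test: 5 members had an unadjusted p under 0.05 on the higher side (8.13% of all genes did) and 8 on the lower side (8.27%), DESeq2 called 3 members higher (Ifi44, Ifih1 and Ifit2, against 3.25% of all genes) and limma-voom 1 (Ifit2, against 2.56%). On the lower side both added Gbp2 to the 3 genes, against 3.14% and 2.93% of all genes. The groups did not overlap for 2 members on the lower side, Irgm1 and Iigp1 (4.56% of all genes), and for 2 on the higher side, Ifit2 and Ifih1 (4.63%).

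The 2 classes differed in where their members lay, mainly through the IRG genes. Among the 11 GTPase genes 2 fell, 9 had negative log2 fold changes and the median was -0.31. All 6 IRG genes were negative, with a median of -0.48. Of the 5 GBP genes 3 were negative and 2 positive, with a median of -0.04. Among the 32 antiviral genes 1 fell (Mx2), 17 had positive and 15 had negative log2 fold changes, and the median was 0.04. Over all tested genes the median was -0.0027, and 8073 of 16039 had negative values. The median of the GTPase genes was negative in all 19 alternative analyses, from -0.47 without Il17ra-/- replicate 1 to -0.19 without WT replicate 2. That of the antiviral genes ran from -0.22 without Il17ra-/- replicate 1 to 0.12 without Il17ra-/- replicate 3, and was negative in 4 of the 19.

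**Figure D1:**
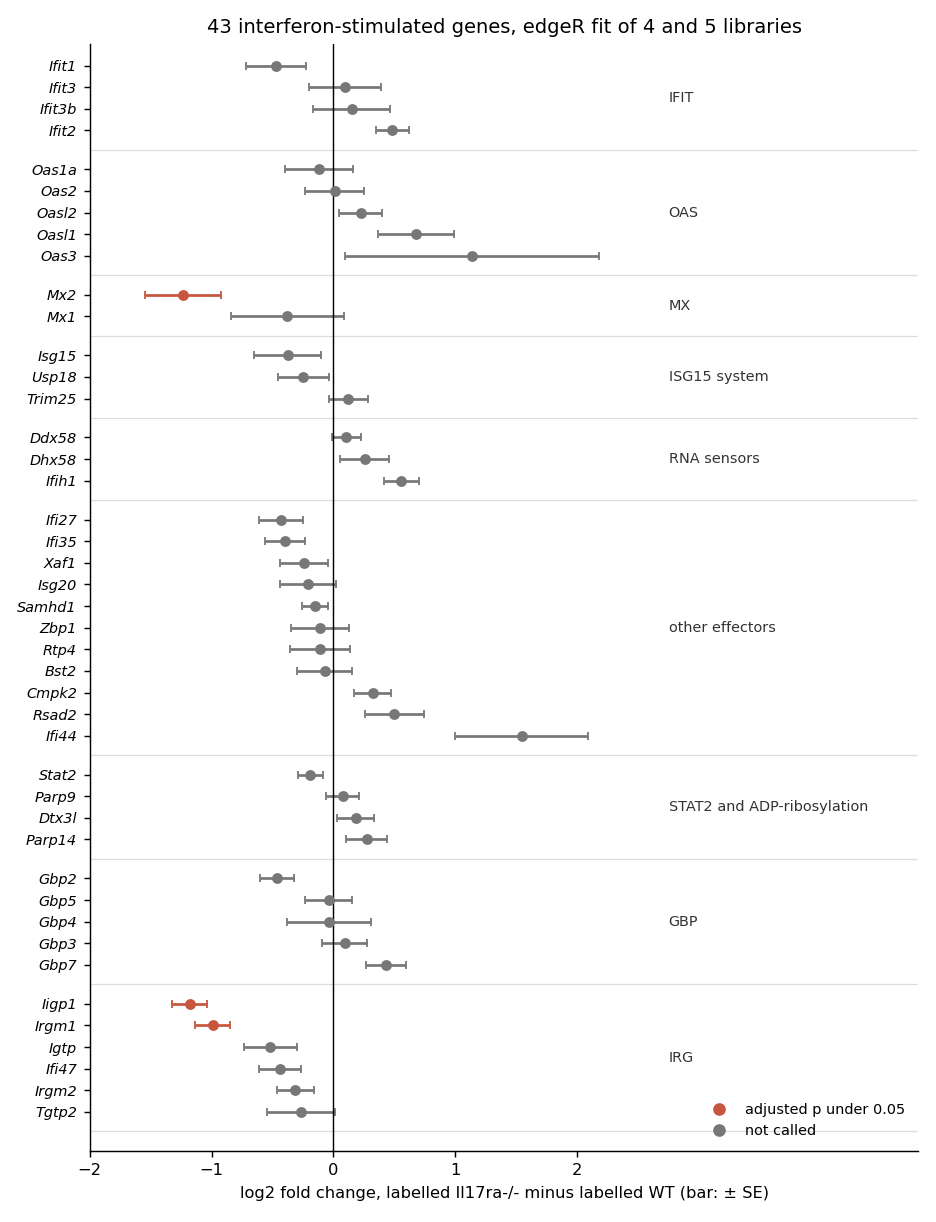
Log2 fold change (libraries labelled Il17ra-/- minus libraries labelled WT, 5 and 4 libraries) of each of the 43 members on the horizontal axis, by family, as a point with a bar of ± SE. Red marks an adjusted p under 0.05, which holds for Iigp1, Irgm1 and Mx2, all lower, and all 6 IRG genes lie left of 0.

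The IRG proteins are GTPases that attack the vacuoles of intracellular microbes, and Irgm1 is a regulator that keeps the other IRG proteins inactive on the cell's own membranes. Irgm1 (ENSMUSG00000046879.7, chr11:48861968-48871683, minus strand) stood at 169, 232, 186 and 158 CPM in WT replicates 1 to 4. In Il17ra-/- replicates 1 to 5 it stood at 111, 99.6, 69.5, 90.2 and 97.6 CPM. Every library labelled Il17ra-/- was below every library labelled wild type, and the means were 93.6 ± 15.5 (SD, n = 5) and 186 ± 32.8 CPM (SD, n = 4). The log2 fold change was -0.99 (SE 0.15, adjusted p 0.00177). An exact two-sided permutation test gave p 0.0159, the smallest that 4 against 5 libraries allow. Any gene whose groups do not overlap gets this value, so it only restates the separation.

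Iigp1, an effector GTPase of the same family (ENSMUSG00000054072.12, chr18:60376027-60392634, plus strand), showed the same separation. Its levels were 191, 214, 178 and 152 CPM in WT replicates 1 to 4 and 107, 76.5, 69.7, 68.5 and 84.6 CPM in Il17ra-/- replicates 1 to 5. The lowest library labelled wild type stood above the highest labelled Il17ra-/-. Its log2 fold change was -1.18 (SE 0.14, adjusted p 0.000534; exact permutation p 0.0159). Irgm1 and Iigp1 were called in all 19 alternatives, with log2 fold changes from -1.06 to -0.87 and from -1.30 to -1.10.

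The other 4 IRG genes had negative log2 fold changes that did not pass the test. Igtp, a regulator like Irgm1, stood at 41.0, 91.9, 46.2 and 48.8 CPM in the wild-type-labelled libraries and at 51.4, 40.0, 30.1, 36.8 and 40.4 CPM in those labelled Il17ra-/- (log2 fold change -0.52, SE 0.22, adjusted p 0.253). Its groups overlapped, and WT replicate 2 stood above all other libraries. For Ifi47 the value was -0.44 (adjusted p 0.226) and for Irgm2, the third regulator, it was -0.31 (adjusted p 0.324). Tgtp2 was at 3.51 to 8.75 CPM in all libraries (-0.26, adjusted p 0.691), and 86.6% of its 50-base windows also occur in transcripts of another gene, mostly Tgtp1. Igtp and Irgm2 share 162 exon bases on the same strand. Over the 6 IRG genes the median log2 fold change was -0.48, and -0.19 without WT replicate 2. It was negative in all 19 alternatives.

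Guanylate-binding proteins assemble on the membranes of intracellular pathogens, and their genes are standard targets of interferon-gamma. Gbp2, the most abundant of the 5, stood at 133, 162, 108 and 111 CPM in the wild-type-labelled libraries. In the libraries labelled Il17ra-/- it stood at 109, 98.5, 86.2, 91.9 and 79.0 CPM. Only Il17ra-/- replicate 1 reached the range of the wild-type label. The log2 fold change of -0.46 (SE 0.14) had an adjusted p of 0.0962 in edgeR (exact permutation p 0.0317). Gbp2 was called lower in 2 of 19 alternatives, DESeq2 and limma-voom. Gbp7 lay on the other side (0.43, SE 0.16, adjusted p 0.202). Gbp3, Gbp4 and Gbp5 had log2 fold changes of 0.09, -0.04 and -0.04, with adjusted p-values of 0.849, 0.974 and 0.944. The GBP median was -0.04, and ran from -0.20 to 0.12 over the alternatives.

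The MX proteins are dynamin-like GTPases that block viral nucleoproteins. Mx2 (chr16:97535308-97560900, plus strand) stood at 15.4, 29.4, 11.7 and 9.30 CPM in the wild-type-labelled libraries and at 10.7, 6.70, 4.85, 6.56 and 6.04 CPM in those labelled Il17ra-/-. WT replicate 2 was the highest, and Il17ra-/- replicate 1 stood above WT replicate 4, so the groups overlapped. The log2 fold change of Mx2 was -1.24 (SE 0.31), with an adjusted p of 0.0499 at the edge of the threshold (exact permutation p 0.0317). Without WT replicate 2 it was -0.80 (adjusted p 0.106), and the call held in 8 of 19 alternatives. It was also lost without WT replicate 1, WT replicate 3, or any of Il17ra-/- replicates 2 to 5, under each of the 3 other scalings (adjusted p 0.0507 to 0.0545), and with replicate number as a block (adjusted p 0.0936). Mx1 was at 2.21 to 9.62 CPM with a log2 fold change of -0.38 (adjusted p 0.739). RefSeq types both genes as transcribed pseudogenes, and common laboratory strains carry defective copies of them.

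IFIT proteins bind viral RNA that lacks the host's cap methylation. Ifit1 stood at 83.6, 175, 84.5 and 67.2 CPM in the wild-type-labelled libraries and at 104, 67.3, 70.4, 70.4 and 57.5 CPM in those labelled Il17ra-/- (log2 fold change -0.47, SE 0.25, adjusted p 0.365). The groups overlapped, and 1 library of each stood above its other libraries, WT replicate 2 and Il17ra-/- replicate 1. Ifit2 stood at 34.9, 43.9, 40.0 and 39.8 CPM and at 71.4, 54.7, 50.2, 56.3 and 44.5 CPM. It was the IFIT gene whose groups did not overlap (0.48, SE 0.14, adjusted p 0.0803). The exact permutation p of 0.0159 restates that separation. Ifit2 was called higher in 5 of 19 alternatives. Ifit3 was at 78.5, 78.9, 47.4 and 38.6 CPM and at 121, 59.4, 44.8, 55.8 and 43.6 CPM (0.10, adjusted p 0.908). For Ifit3b it was 0.15 (adjusted p 0.858), and 51.2% of the windows of Ifit3 and 45.0% of those of Ifit3b are shared with another gene, so that their separate values are uncertain.

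OAS enzymes make oligoadenylates that switch on the nuclease RNase L, and the OASL proteins are relatives that act on other antiviral steps. None of the 5 passed the edgeR test, and DESeq2 and limma-voom called none either, while Oasl1 alone had an unadjusted p under 0.05 (0.68, SE 0.31, adjusted p 0.301). Oasl2, the most abundant, ranged from 99.1 to 118 CPM in the wild-type-labelled libraries and from 78.8 to 178 CPM in those labelled Il17ra-/- (0.22, adjusted p 0.574). Oas1a and Oas2 had log2 fold changes of -0.12 and 0.01. For Oas1a, 57.6% of windows are shared with another gene. Oas3 was carried by 1 library. It stood at 4.16, 0, 2.01 and 4.59 CPM in the wild-type-labelled libraries, and at 22.3, 1.51, 0.41, 2.47 and 3.14 CPM in those labelled Il17ra-/-. In WT replicate 2 the count was 0, which allows up to 0.0984 CPM. The log2 fold change of Oas3 was 1.14 (SE 1.04, adjusted p 0.637) and was -0.52 without Il17ra-/- replicate 1.

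ISG15 is a ubiquitin-like protein that is joined to other proteins, and Usp18 removes it and also restrains the type I receptor. Isg15 stood at 47.9, 94.2, 38.8 and 35.4 CPM in the wild-type-labelled libraries and at 59.2, 41.6, 26.3, 45.4 and 35.9 CPM in those labelled Il17ra-/- (log2 fold change -0.37, SE 0.28, adjusted p 0.543). Usp18 had -0.25 (SE 0.21, adjusted p 0.604). It lies 758.3 kb beyond the end of Il17ra on the same chromosome. Trim25, a ligase that activates the sensor RIG-I, had 0.12 (adjusted p 0.754). In Isg15 and Usp18 the highest of the 9 libraries was WT replicate 2, and in Trim25 it was Il17ra-/- replicate 1.

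The 3 cytoplasmic sensors of viral RNA all had positive log2 fold changes. Ifih1, which encodes the long-RNA sensor MDA5, stood at 42.1, 32.3, 47.4 and 45.6 CPM in the wild-type-labelled libraries and at 78.5, 62.1, 50.8, 58.5 and 58.4 CPM in those labelled Il17ra-/-. The groups did not overlap (exact permutation p 0.0159, the value of any such gene). The log2 fold change of Ifih1, 0.56 (SE 0.15), missed the threshold at an adjusted p of 0.0579. It passed in 3 of 19 alternatives: scaling by library total only, no filter on low counts, and DESeq2. Ddx58, the gene of RIG-I, had 0.11 (SE 0.12, adjusted p 0.714), and Dhx58, the gene of their regulator LGP2, had 0.26 (SE 0.20, adjusted p 0.575). Of the exons of Dhx58, 141 bases overlap the antisense gene Dhx58os, whose reads cannot be told apart there.

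**Figure D2:**
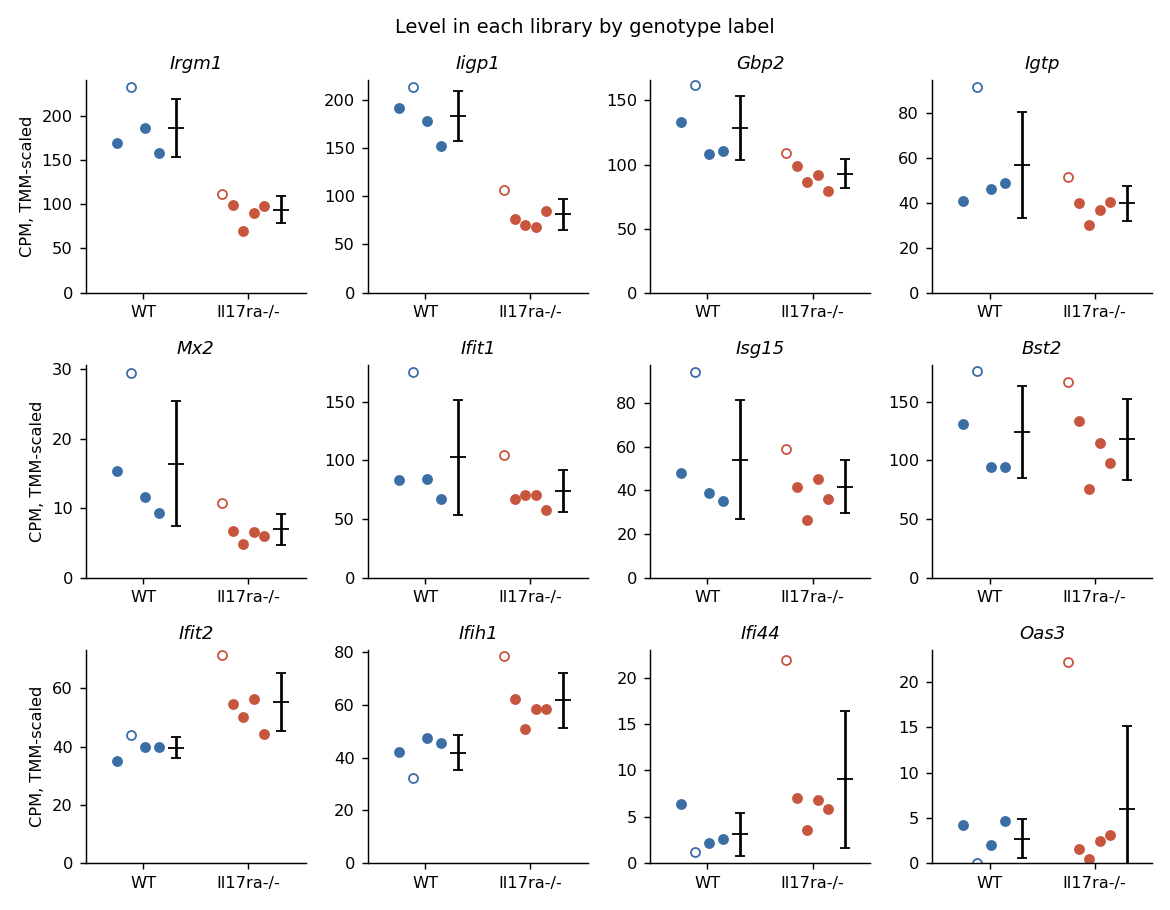
Level in CPM (vertical axes, linear from 0) in each library for 12 members, with libraries labelled WT in blue and labelled Il17ra-/- in red, open symbols for WT replicate 2 and Il17ra-/- replicate 1, and bars for the mean ± SD (the lower bar of Oas3 is clipped at 0). Irgm1 and Iigp1 separate on the lower side, Ifit2 and Ifih1 on the higher side, and the open symbols are the highest of their group in most panels.

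The 11 other antiviral effectors held no called gene in edgeR. Ifi44, a protein linked to slowed cell growth, stood at 6.41, 1.21, 2.10 and 2.58 CPM in the wild-type-labelled libraries and at 21.9, 6.98, 3.58, 6.75 and 5.80 CPM in those labelled Il17ra-/-. WT replicate 1 lay within the range of the other label, and the log2 fold change of Ifi44 was 1.54 (SE 0.54, adjusted p 0.166). Without Il17ra-/- replicate 1 it was 0.91 (adjusted p 0.401), while DESeq2 called it higher. Bst2, the membrane protein tetherin that holds budding viruses on the cell, was at 131, 176, 94.6 and 94.1 CPM and at 167, 134, 75.8, 115 and 97.6 CPM (-0.07, SE 0.23, adjusted p 0.906). Its range within each label exceeded the difference between the labels.

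For Rsad2, the antiviral enzyme viperin, the log2 fold change was 0.50 (adjusted p 0.329), and for its neighbour Cmpk2, a nucleotide kinase, it was 0.32 (adjusted p 0.307). Ifi27 (125 to 273 CPM in the wild-type-labelled libraries, 120 to 151 CPM in those labelled Il17ra-/-) had -0.43 (adjusted p 0.253), and Ifi35 had -0.40 (adjusted p 0.234). Both had an unadjusted p under 0.05, and in both WT replicate 2 was the highest library. Zbp1, a sensor of left-handed nucleic acid, had -0.11, and Rtp4 also had -0.11. Samhd1, which breaks down nucleotides, had -0.15, Xaf1 had -0.24 and the exonuclease gene Isg20 had -0.21. Their adjusted p-values ran from 0.53 for Samhd1 to 0.863 for Rtp4.

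Stat2 encodes the STAT protein specific to type I and type III interferon signalling. It had the smallest SE of the 43 members and stood at 88.2 to 98.8 CPM in the wild-type-labelled libraries and 72.9 to 92.9 CPM in those labelled Il17ra-/- (log2 fold change -0.19, SE 0.10, adjusted p 0.377). Parp9 and Dtx3l encode partners that modify proteins with ADP-ribose and ubiquitin, and Parp14 encodes a related enzyme. Their log2 fold changes were 0.08, 0.18 and 0.27 (adjusted p-values 0.831, 0.595 and 0.459). Exons of Parp9 and Dtx3l overlap by 458 bases on opposite strands, and counting without strand cannot assign those reads.

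Single libraries set much of the spread of the antiviral genes. Il17ra-/- replicate 1 was the highest of the 5 libraries with its label in 29 of 32 antiviral genes and 10 of 11 GTPase genes, and the highest of all 9 in 20 and 4. It exceeded the mean of the other 4 libraries with its label in 29 antiviral genes, by a median of 0.62 on the log2 scale (1.54-fold), and in all 11 GTPase genes, by a median of 0.50 (1.42-fold). WT replicate 2 was the highest of all 9 libraries in 10 antiviral and 6 GTPase genes, but the lowest in 6 antiviral genes and 1 GTPase gene. It exceeded the mean of the other 3 libraries with its label in 20 of 32 antiviral and 9 of 11 GTPase genes. Il17ra-/- replicate 3 was the lowest of all 9 in 14 antiviral and 5 GTPase genes. Thus the 2 libraries that were most often the highest of all 9 carried different labels. They are the same 2 that stood apart over all genes and had the fewest genes with a count. The part of that in the levels of these genes was not tested.

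**Figure D3:**
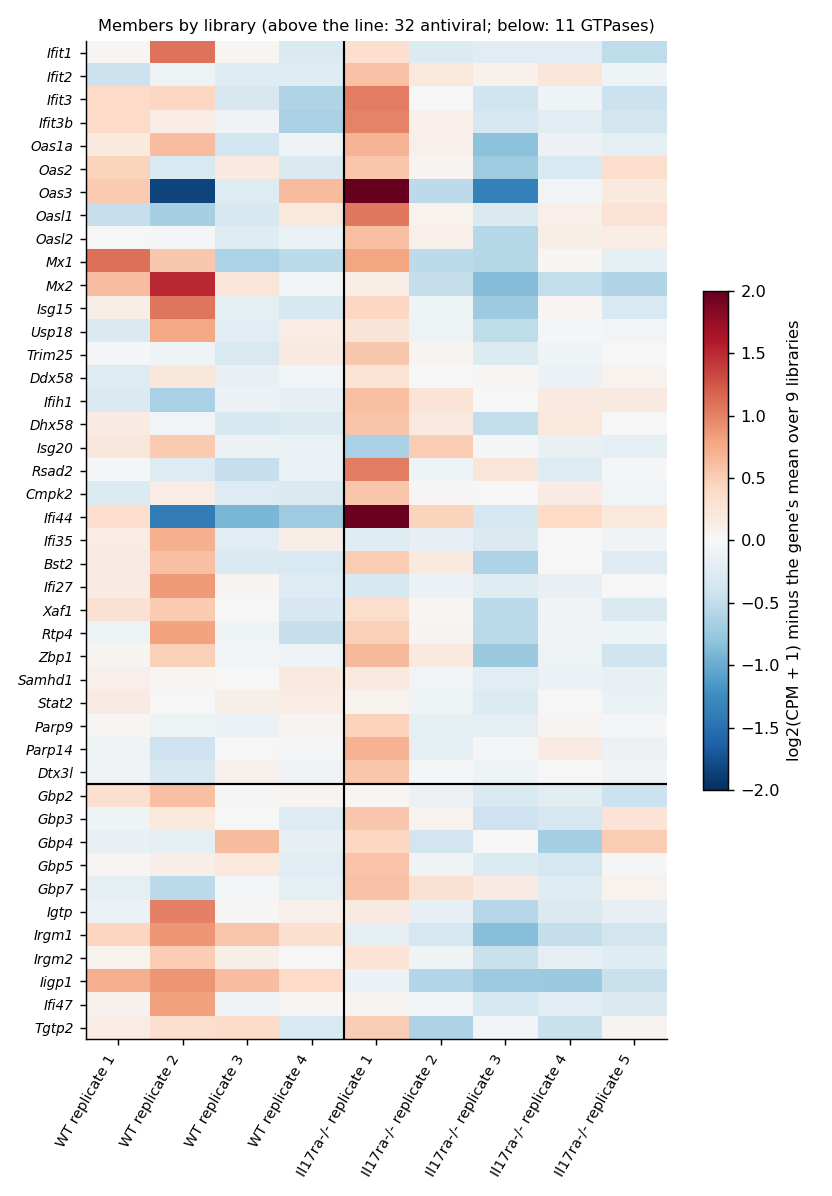
Level of each member (rows) in each library (columns) as log2(CPM + 1) minus the gene's mean over the 9 libraries, red for higher and blue for lower, with colours saturated at -2 and 2. Il17ra-/- replicate 1 is red across most antiviral rows, WT replicate 2 is red in part of both classes, and Irgm1 and Iigp1 are red in all 4 columns labelled WT.

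Summed over members, the antiviral level did not separate the labels and the GTPase level did so in part. The mean of log2(CPM + 1) over the 32 antiviral genes was 5.19, 5.23, 4.91 and 4.93 in the wild-type-labelled libraries and 5.66, 5.07, 4.71, 5.05 and 4.99 in those labelled Il17ra-/-, or 5.07 ± 0.17 (SD, n = 4) and 5.10 ± 0.35 (SD, n = 5). Over the 11 GTPase genes it was 5.42, 5.73, 5.53 and 5.29 and then 5.57, 5.12, 4.96, 4.93 and 5.21, or 5.49 ± 0.19 and 5.16 ± 0.26. Within a library the GTPase mean exceeded the antiviral mean by 0.24, 0.50, 0.62 and 0.36 in WT replicates 1 to 4. In Il17ra-/- replicates 1 to 5 the difference was -0.09, 0.05, 0.25, -0.12 and 0.23. WT replicate 1 lay just below the highest library labelled Il17ra-/-. With Irgm1 and Iigp1 left out, the differences were -0.02 ± 0.17 and -0.22 ± 0.18. With them they were 0.43 ± 0.17 and 0.06 ± 0.17. The 2 genes were picked after their values were seen and had the most negative log2 fold changes of the class. Leaving them out therefore had to bring the labels closer together. These class means are a description, since the members were chosen with results of these data known, and no test was made of them.

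**Figure D4:**
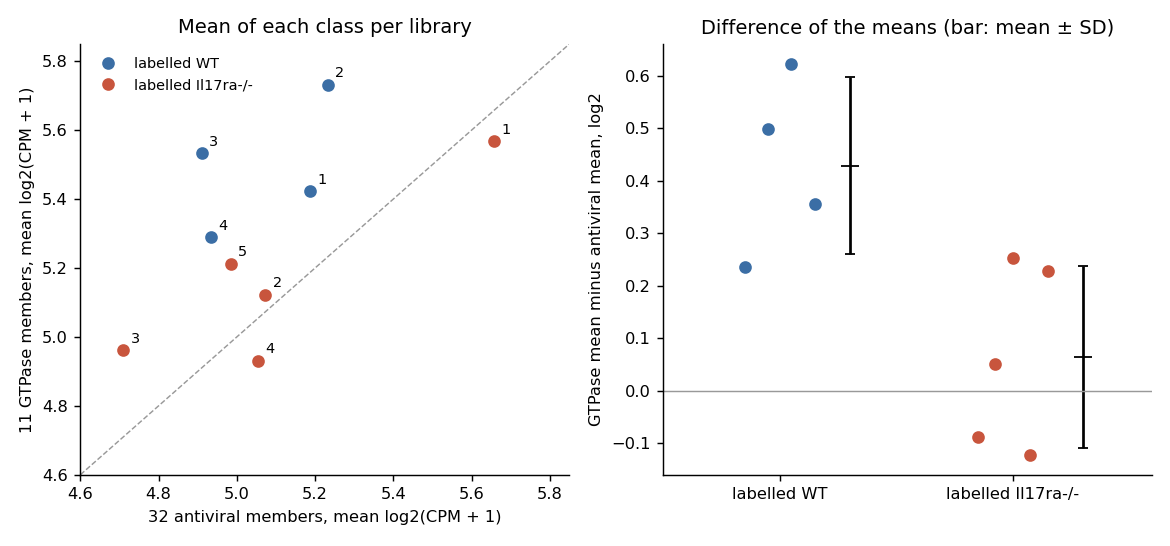
Left: mean log2(CPM + 1) of the 11 GTPase genes against that of the 32 antiviral genes, 1 point per library with its replicate number, with a dashed line of equality. Right: the difference of the 2 means per library with the mean ± SD of each label, 0.43 ± 0.17 (labelled WT, n = 4) and 0.06 ± 0.17 (labelled Il17ra-/-, n = 5).

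Levels between genes were compared as CPM per kb of exon, averaged over the 9 libraries. Reads of several map positions were left out of the counts, but the full exon length was used. Members that share many windows with another gene (Ifit3 51.2%, Oas1a 57.6%, Ifit3b 45.0%, Tgtp2 86.6%) may therefore stand too low. Bst2 led at 133, followed by Ifi27 at 106, Isg15 at 62.4, Gbp2 at 43.2, Ifit3 at 36.2 and Ifit1 at 32.7. The IRG genes Irgm2, Igtp, Irgm1 and Iigp1 followed within 21.8 to 26.9 CPM per kb, with Ifi35 among them at 22.6. This order mixes the labels: Irgm1 and Iigp1 ranked 7 and 8 of the 43 in the wild-type-labelled libraries (32.1 and 31.6 CPM per kb) and 13 and 17 in those labelled Il17ra-/- (16.1 and 13.9). Mx1, Ifi44, Oas3 and Gbp4 were lowest, at 1.18, 1.04, 0.638 and 0.602 CPM per kb. Neighbours in this order lay closer together than the spread of a member over libraries in many cases: Ifit3 ranged from 38.6 to 121 CPM, and Oas3 from 0 to 22.3 CPM.

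Members with and without the promoter elements overlapped widely in their difference between labels. With an ISRE core (19 genes) the log2 fold changes ran from -0.99 to 1.14 around a median of -0.07, and without one (12 genes) from -0.44 to 1.54 around 0.15. With a GAS (11 genes) the median was -0.15 and without one (20 genes) it was 0.12. Among the 5 GTPase genes with both elements, Igtp, Irgm2 and Tgtp2 had negative values, Gbp5 was near 0 and Gbp7 was positive, while Irgm1 has ISRE cores and no GAS in its window. Iigp1 and Mx2 were not among the promoters searched.

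Interferon genes themselves were close to undetected. Of 21 ligand genes, 18 had a count of 0 in every library and none passed the filter. Ifnb1, the gene of interferon-beta, named here after its values were seen, had counts of 0, 28, 0 and 1 in the wild-type-labelled libraries and 32, 0, 9, 4 and 0 in those labelled Il17ra-/-. The 2 highest counts, 0.919 and 0.814 CPM, were in WT replicate 2 and Il17ra-/- replicate 1, the libraries most often the highest in the members. The next count, 9 (0.194 CPM), was in Il17ra-/- replicate 3, the lowest of all 9 libraries in 14 antiviral and 5 GTPase genes. A relation of Ifnb1 to the members was not tested. Ifng, the gene of interferon-gamma, had 0, 0, 5 and 0 and then 0, 4, 0, 0 and 14. Both stayed under 1 CPM, so a difference between labels was not detectable at this depth.

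Receptors and their kinases did not differ beyond the threshold. Of 9 genes, 8 were tested and none was called in edgeR or in any of the 19 alternatives. On the lower side 1 had an unadjusted p under 0.05 (8.27% of all genes did). That gene, Ifngr1, the ligand-binding chain for interferon-gamma, stood at 292 to 326 CPM in the wild-type-labelled libraries and 227 to 294 CPM in those labelled Il17ra-/- (log2 fold change -0.24, SE 0.10, adjusted p 0.253). Ifnar1 and Ifnar2, the chains of the type I receptor, had 0.08 and -0.13, and Jak1 and Jak2 had 0.09 each.

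Among 8 tested STAT and IRF genes, 2 fell, where 1.71% of all genes were called lower. Irf1, the transcription factor induced by interferon-gamma, stood at 564, 919, 594 and 523 CPM in the wild-type-labelled libraries and at 134, 212, 159, 156 and 213 CPM in those labelled Il17ra-/-. The groups were far apart (log2 fold change -1.89, SE 0.18, adjusted p 0.00015). Irf8, a partner factor best known from myeloid cells, fell from 11.3 ± 2.83 to 3.81 ± 0.70 CPM (SD, n = 4 and n = 5; -1.57, SE 0.22, adjusted p 0.00121). Both were called in all 19 alternatives. Irf3, Irf5 and Irf9 had log2 fold changes of -0.18, -0.42 and -0.15 (adjusted p-values 0.475, 0.575 and 0.578). Irf7, named after its values were seen because it amplifies the response, had -0.11 (adjusted p 0.889).

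Of 11 tested genes of nucleic acid sensing and relay, 1.71% of all genes being called lower, Myd88 fell. This adaptor of Toll-like and interleukin-1 receptors went from 138 ± 22.9 to 73.8 ± 6.59 CPM (SD, n = 4 and n = 5; log2 fold change -0.91, SE 0.12, adjusted p 0.000894). Tmem173, the gene of STING, had -0.46 and Tlr3 0.33 (adjusted p 0.226 each), Ikbke -0.40 and Adar 0.43. The 9 negative regulators include the members Usp18 and Isg15. None was called in edgeR or DESeq2, and 1 was called lower in limma-voom (2.93% of all genes were). On the lower side 3 had an unadjusted p under 0.05 (8.27% of all genes did). Socs1, which inhibits the Janus kinases, stood at 121, 341, 152 and 129 CPM and at 75.3, 113, 93.1, 71.1 and 108 CPM. Its groups did not overlap (4.56% of all genes on the lower side), and the log2 fold change of -1.01 (SE 0.27) had an adjusted p of 0.0617. It was called lower in 4 of 19 alternatives, and the log2 fold change of Socs1 was -0.54 (adjusted p 0.0641) without WT replicate 2. Socs3 and Ptpn2 had -0.34 and -0.35 (adjusted p-values 0.207 and 0.245).

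A broader list of 63 other interferon-stimulated genes had 55 tested members, of which 8 fell and none was called higher, also not in any of the 19 alternatives. Of all genes, 1.71% were called lower and 1.35% higher. At an unadjusted p under 0.05 there were 10 on the lower side (8.27% of all genes) and 2 on the higher side (8.13%). The median of the list was -0.05. Cxcl10 and Cxcl9, chemokines that draw T cells, fell from 113 ± 57.4 to 21.6 ± 9.42 CPM and from 38.3 ± 13.5 to 14.4 ± 5.11 CPM (SD, n = 4 and n = 5). Their log2 fold changes were -2.38 (SE 0.34, adjusted p 0.00131) and -1.41 (SE 0.29, adjusted p 0.016). The DNA-binding family genes Ifi207 and Ifi204 fell by 1.08 and 0.53 on the log2 scale (adjusted p-values 0.000581 and 0.0203), and the helicase gene Helz2 fell by 0.78 (adjusted p 0.00159). Cxcl10, Ifi207 and Helz2 were called in all 19 alternatives, Cxcl9 in 18 (not without Il17ra-/- replicate 3) and Ifi204 in 14. The call of Ifi204 was lost without WT replicate 4, without each of Il17ra-/- replicates 2, 3 and 4, and with the replicate block. Gbp6, Oas1b and Ifi205, named after their values were seen, also fell, by 0.63, 0.92 and 0.88 on the log2 scale (adjusted p-values 0.0245, 0.0352 and 0.0253), in 12, 10 and 14 of the 19 alternatives.

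**Figure D5:**
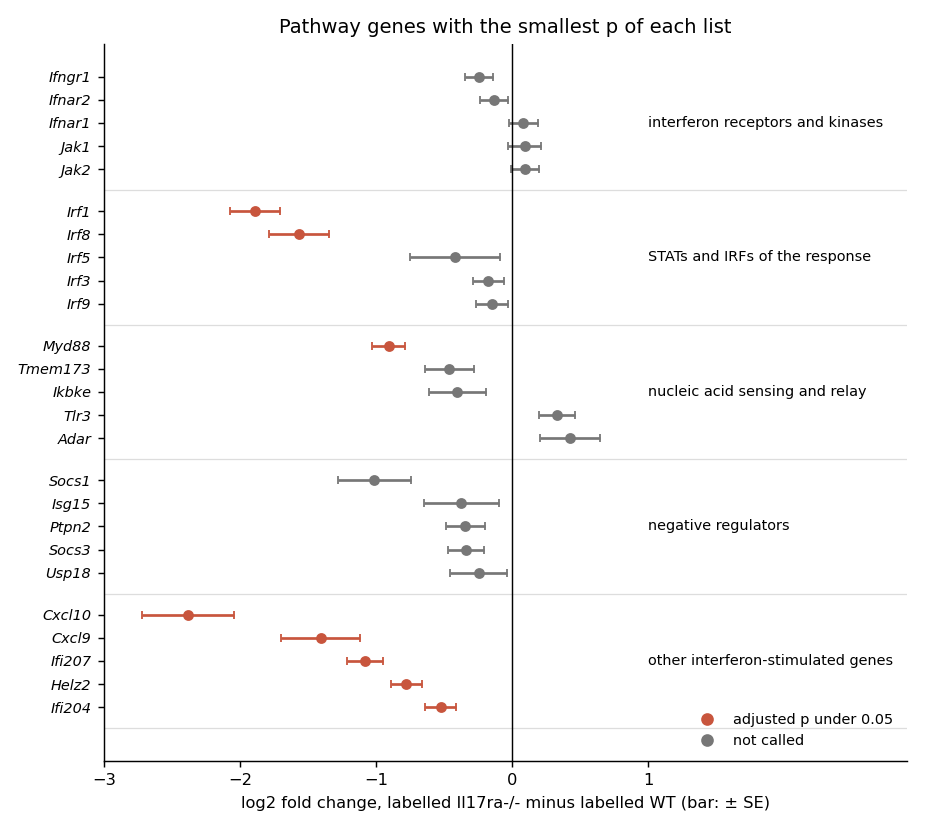
Log2 fold change (libraries labelled Il17ra-/- minus labelled WT) with bars of ± SE for the 5 genes of each pathway list with the smallest p. Red marks an adjusted p under 0.05: Irf1, Irf8, Myd88, Cxcl10, Cxcl9, Ifi207, Helz2 and Ifi204, all lower, and none of the receptors and kinases.

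Cell type markers were read beside these values, since in bulk tissue fewer cells of a type and less RNA per cell cannot be told apart. Over all genes, 1.35% were called higher and 1.71% lower. Muscle fibre markers were present (summed 1066 to 2625 CPM in the wild-type-labelled libraries and 2900 to 3870 CPM in those labelled Il17ra-/-, 2 of 7 called higher), and connective tissue markers were far more abundant (31760 to 32760 and 25240 to 31380 CPM, 1 of 6 called lower). Thus connective tissue markers exceeded muscle fibre markers in every library, although the samples were given as quadriceps. How far these libraries represent whole muscle was not tested. Blood cell markers were almost absent. Leukocyte markers summed to 0 to 1.70 and 0.872 to 2.12 CPM, with Ptprc (CD45) at 0 to 0.461 CPM. Neutrophil markers stayed at or below 0.631 CPM, with Csf3r and Retnlg at 0, and T and NK cell markers at or below 3.26 CPM, with Nkg7 and Ncr1 at 0. Macrophage markers summed to 21.2 to 39.0 and 10.02 to 17.8 CPM. Of these 7 tested, Cd68 fell, from 17.9 ± 5.20 to 2.58 ± 1.01 CPM (SD, n = 4 and n = 5), while 4 of the 7 had positive log2 fold changes and the median was 0.75. Without Cd68, a split chosen after its values were seen, the sums overlapped (9.64 to 14.8 and 8.09 to 15.8 CPM). Csf1r was at 0 to 1.93 CPM.

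Endothelial markers (265 to 458 and 311 to 385 CPM) and, without the member Bst2, markers of plasmacytoid dendritic cells (269 to 290 and 267 to 325 CPM) overlapped between the labels, and of the latter the defining gene Siglech was at 0 to 0.108 CPM. Of the 5 endothelial genes none was called and 4 had negative log2 fold changes. Among them the defining gene Pecam1 was at 1.81 to 3.38 and 0.949 to 2.06 CPM. Markers of pericytes and smooth muscle (852 to 1167 and 1396 to 2003 CPM, 4 of 5 called higher) and of adipocytes (2.07 to 6.82 and 7.90 to 28.4 CPM, 1 of 4 called higher) did not overlap between the labels. The sums of the muscle fibre and connective tissue markers did not overlap between the labels either, nor did that of the macrophage markers, through Cd68. The part of these marker differences in the levels of Irgm1, Iigp1 and Mx2 was not tested.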

How the data were processed

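RNA was sequenced from quadriceps in 4 wild-type-labelled and 5 Il17ra-/--labelled libraries. Per the labels' protocols, RNA with an integrity number above 8.0 was made into TruSeq v2 libraries, a kit that does not mark strand, at a stated depth of 30 M reads. The submitters' processing notes name STAR as a tool, with a version not given in the sources used here. Each deposited file holds raw read counts by gene, which the authors obtained from featureCounts 1.6.0 over GENCODE M21 exons (GRCm38), per the file headers, with unstranded counting and reads of several map positions left out.

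Counts were filtered with filterByExpr, scaled with TMM and compared by genotype label with edgeR 4.0.16 (quasi-likelihood test, two-sided, R 4.3.3), with Benjamini-Hochberg adjustment over all 16039 tested genes. Adjusted p-values come from this test unless another is named. The SE is the size of the log2 fold change divided by the root of the F value. Exact permutation tests used log2(CPM + 1). Depth was 31.3 to 46.4 M counts per library. The 19 alternatives were other scalings and filters, DESeq2 1.42.0, limma 3.58.1 (voom with quality weights), a robust fit, a replicate block, and leaving out libraries.

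The members and gene lists were chosen with earlier results of these data known. All members may be named; of each pathway list, up to 5 tested genes with the smallest p were named, and others are said to have been named after their values were seen. Markers are given as list ranges with defining genes. One gene of the pathway lists is not reported here.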

Additional observations from a re-analysis of the deposited data

Results flagged for a closer look

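For each member, the highest and the lowest library of a label were compared with the others of that label, in 86 groups of 4 or 5 libraries. By chance about 1 in 20 such groups holds a library as far away, measured by its gap to the nearest other library over the whole range. Of the groups, 14 did so, all with a high library: 8 with Il17ra-/- replicate 1, 5 with WT replicate 2 and 1 with WT replicate 3.

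Il17ra-/- replicate 1 stood above the other 4 libraries with its label in 7 antiviral genes and a GBP gene. Ifit1 was at 104 CPM (others 57.5 to 70.4), Ifit3 at 121 CPM (43.6 to 59.4) and Ifit3b at 19.7 CPM (7.10 to 10.1). Oas3 was at 22.3 CPM (0.41 to 3.14), Ifi44 at 21.9 CPM (3.58 to 6.98) and Rsad2 at 35.7 CPM (14.1 to 20.3). Dtx3l was at 53.4 CPM (33.4 to 36.1) and Gbp5 at 28.4 CPM (14.5 to 18.5).

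WT replicate 2 stood above the other 3 libraries with its label in Ifit1 at 175 CPM (67.2 to 84.5) and Cmpk2 at 41.4 CPM (30.5 to 31.1). It did so too in 3 IRG genes, Igtp at 91.9 CPM (41.0 to 48.8), Irgm2 at 139 CPM (98.1 to 105) and Ifi47 at 69.0 CPM (36.8 to 41.4). In WT replicate 3, Gbp4 was at 7.18 CPM (3.61 to 3.78).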

How the results depend on the processing

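Over 19 alternatives no called gene changed direction, and Irgm1 and Iigp1 were called lower in all 19. Genes called across the transcriptome numbered 491 in the edgeR test, 1026 with DESeq2 and 880 with limma-voom. Leaving out 1 library gave 275 (without Il17ra-/- replicate 3) to 567 (without WT replicate 2); it was 323 without Il17ra-/- replicate 1. Interferon-stimulated genes called higher, 0 in the edgeR test, were 2 (Ifih1 and Ifit2) with scaling by library total only and 2 without a filter on low counts, 3 with DESeq2, 1 with limma-voom, and 0 to 1 when 1 library was left out, the 1 being Ifit2 without WT replicate 2. Scaling by library total only moved the median of all genes to 0.06, and 2.06% of all genes were then called higher. The causes were not tested. With replicate number as a block, over replicates 1 to 4 of both labels, 366 genes were called, with Irgm1 and Iigp1 lower and 1 member, Ifi44, higher. Deviations from the label means correlated weakly between libraries of the same number (-0.034 to 0.055 over 4 pairs). Of 4 wild-type-labelled libraries, 2 correlated best with their own number. So few pairs cannot show whether the numbers pair the samples, and the edgeR test did not use the numbers. Among single genes, 1170 values kept their direction and side of the threshold or moved less than the spread, 16 became called, 17 lost their call and 51 moved otherwise. Depth limits the interferon ligand genes and Oas3, which had a count of 0 in WT replicate 2. Other members at low levels had more counts, with a lowest count of 37 for Ifi44, 79 for Mx1 and 87 for Gbp4.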
